A study of Danio rerio with 6 samples.

Results

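The genes that carry secreted and membrane proteins from the endoplasmic reticulum (ER) to the Golgi were compared between periderm-labelled and other cells of zebrafish embryos. They were chosen by gene symbol, and the choice was made with earlier results of these data known. The symbols mark protein translocation, signal peptide removal, disulfide formation, COPII and COPI transport, and cargo and retrieval receptors. They also mark small GTPases of the ARF family, SNAREs, golgins and the transcription factors Xbp1 and Creb3l. The choice gave 100 genes of 26190 (237 of 51286 transcripts), and 99 of the 100 passed the filter on low counts. GFP-positive cells, labelled periderm, and GFP-negative cells, labelled non-periderm, were sorted from 4-somite embryos of the line Tg(krt4:GFP), with 3 libraries of each. The number of cells sorted for a library is 2000 in the series description, and the study's methods give a larger number. The labels give no treatment, and the embryos of both populations carried the transgene and came from 3 independent incrosses. The transgene is driven by the promoter of the keratin gene *krt4*, so the sort follows the activity of that promoter and not the identity of a cell, and the GFP-negative cells are a mixture of all other types.

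Secreted proteins enter the ER through the Sec61 channel, where the signal recognition particle (SRP) has brought their ribosomes, lose their signal peptide, fold with the help of disulfide isomerases, and leave in vesicles coated with COPII. Vesicles coated with COPI return escaped ER residents and receptors from the Golgi. Xbp1 and the Creb3 family of transcription factors are known to raise the genes of this pathway in professional secretory cells. In zebrafish embryos the hatching gland, which stores and releases the enzymes that digest the egg envelope, and the notochord, which secretes a thick sheath, are known for strong use of it, and the periderm is the outer layer of the embryo that gives way to the later skin.

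Library totals lay between 40584467 and 49679602 estimated counts, and 3 counts corresponded to 0.0604 to 0.0739 CPM. Levels are given in TPM, a unit scaled for transcript length and for the library. The sort was checked with marker genes. Periderm markers were higher in GFP-positive cells for 13 of the 14 genes tested (summed level 5539 to 5770.4 TPM in GFP-positive libraries and 907 to 1007 TPM in GFP-negative libraries), and *grhl3* was not called. *krt4* itself had 2315 to 2591 TPM in GFP-positive libraries and 545 to 636 TPM in GFP-negative libraries. RNA of the gene behind the sort was thus present on both sides of it. The planned periderm list included *krt4*, so the periderm count and summed level may not be separate from the sort. Markers of other cells moved with the sort as well. All 8 hatching gland genes were higher (6640 to 6879 TPM in GFP-positive and 934 to 938 TPM in GFP-negative libraries), and without the member *agr2* the other 7 summed to 6596 to 6833 TPM in GFP-positive and 921 to 923 TPM in GFP-negative libraries. The planned periderm and hatching gland lists shared a gene symbol, so their counts may not be separate. Of the 9 notochord genes 7 were higher (793 to 942 TPM in GFP-positive and 194 to 200 TPM in GFP-negative libraries), whereas 10 of the 11 neural genes were lower. Among all genes tested, 24.1% were called higher and 25.0% lower in GFP-positive cells. Of the other lists, 4 of 10 paraxial mesoderm genes were higher and 4 lower, 5 of 8 blood and endothelial genes higher and 1 lower, 2 of 5 basal epidermis genes higher and 1 lower, and 2 of 3 mucous cell genes higher and 1 lower. The higher mucous cell genes included the member *agr2*, so that count is not separate from the members. Of the 11 yolk syncytial genes 5 were higher and 6 not called. Of the 8 ionocyte genes 4 were higher and 4 not called, but their summed level was 478 to 525 TPM in GFP-positive and 521 to 558 TPM in GFP-negative libraries. The mucins *muc5.1*, *muc5.2* and *muc5.3* were at or below 0.0119 TPM on average in either population. The part of hatching gland and notochord RNA in each result given here was not tested. In such bulk libraries fewer cells of a type and less RNA per cell cannot be told apart.

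Most genes of the pathway were higher in GFP-positive cells, by small amounts. Estimated counts were compared with the quasi-likelihood test of edgeR, and a gene was called where the adjusted p-value over all 20944 genes tested was under 0.05 and the mean TPM of the higher population was above 1. Of the 99 members tested, 64 (64.6%) were called higher and 15 (15.2%) lower in GFP-positive cells, and 20 were not called. Among all genes tested, 24.1% were called higher and 25.0% lower. The members' median log2 fold change, GFP-positive over GFP-negative, was 0.40 (quartiles 0.08 and 0.74), against 0.02 over all genes tested (quartiles -0.34 and 0.47). Of the members 15 were called and at least 2-fold higher, and the lowest log2 fold change was -0.82, where 8.45% of all genes were called and at least 2-fold higher and 3.93% at least 2-fold lower. Added up, the members reached 16168 ± 619 TPM in GFP-positive cells against 11612 ± 74.6 TPM in GFP-negative cells (SD, n = 3 each), a ratio of 1.39. Abundant genes weigh most in this sum: *sec61g* alone had 2553 ± 411 TPM in GFP-positive cells against 1316 ± 111 TPM in GFP-negative cells. By role the ratio ran from 0.88 for the golgins to 1.69 for targeting and translocation. Most of the golgin sum came from *golga7* (185 ± 2.06 TPM in GFP-positive cells against 228 ± 6.47 TPM in GFP-negative cells), and 6 of the 8 tested genes of that role were called higher.

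The scale mattered for small differences. On log2(TPM + 1), tested with limma, the median over all genes was -0.11 and that of the members 0.20, against 0.02 and 0.40 with edgeR, and 51 members were called higher and 19 lower of the 96 tested, where limma called 22.2% of all genes higher and 35.1% lower (57.3% in either direction). The higher genes made up 72.9% of the members' calls with limma and 81.0% with edgeR, against 38.7% with limma and 49.1% with edgeR of the calls over all genes. All 51 were also called higher by edgeR, 13 members lost their higher call (*arf5*, *copa*, *copb1*, *creb3l1*, *golga2*, *golga3*, *golga4*, *golgb1*, *sec22ba*, *sec24d*, *sec31a*, *srp14* and *tmed8*), and no gene was called in opposite directions. TPM ratios are therefore read below against a median gene that lies slightly under equality.

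The TPM values of the populations did not overlap for 53 members that were above and 19 that were below in GFP-positive cells, where 24.2% and 34.3% of all genes tested did so. Transcript length moved with the differences. Of the 14 members whose most abundant transcript had at most 1000 bases, 13 were called higher and 1 lower (median log2 fold change 0.70), where 31.1% of all genes of that length were called higher and 17.4% lower (median 0.15). Of the 85 longer members 51 (60.0%) were called higher and 14 (16.5%) lower (median 0.33), where 22.7% of all longer genes were called higher and 26.4% lower. The part of length in the differences was not tested. Leaving out each library in turn kept 66 of the 79 calls in every fit (56 higher, 10 lower), and no called member changed sign.

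**Figure D1:**
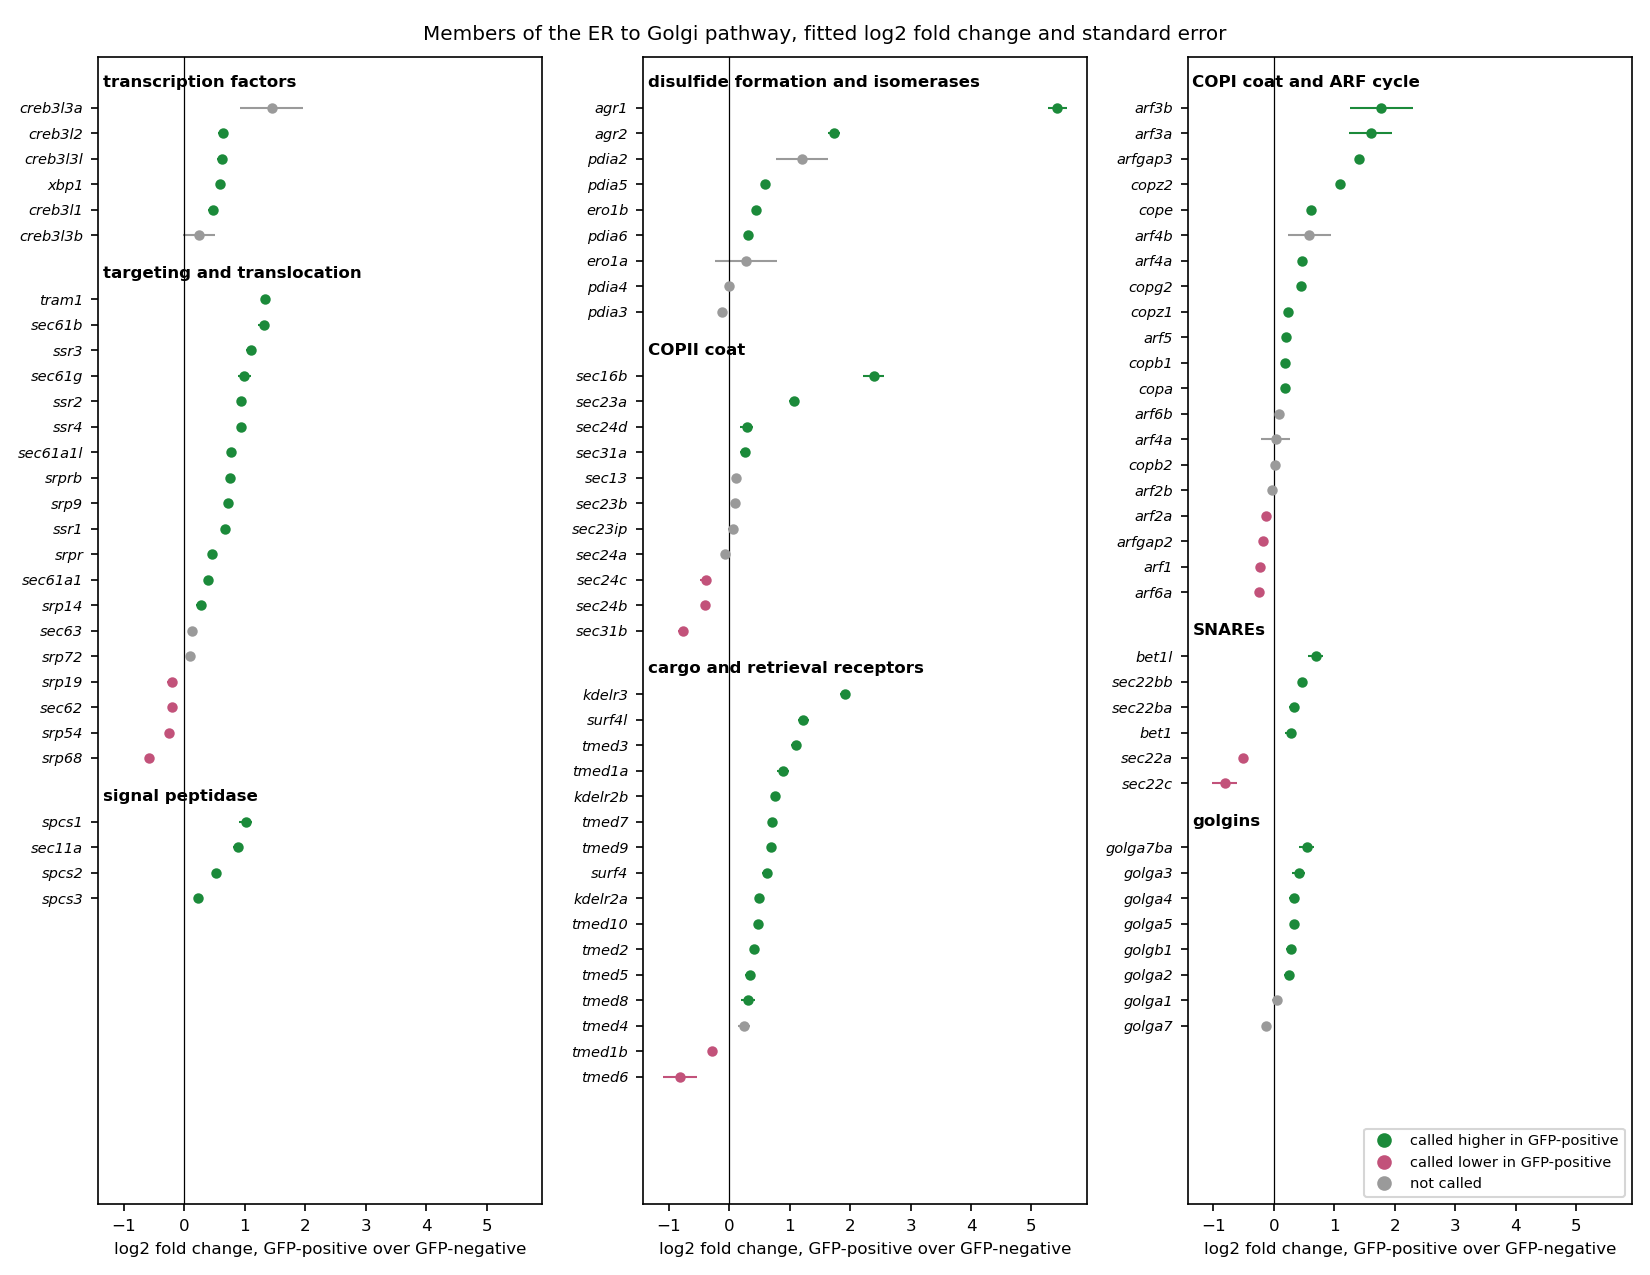
Log2 fold change of each of the 99 tested members (horizontal axis, GFP-positive over GFP-negative, edgeR), by role; points are estimates, bars are standard errors and colours give the call. Most points lie between 0 and 1.4, *agr1* stands far to the right at 5.43, and lower calls lie among the SRP proteins, the COPII coat, the ARF cycle and Sec22, with *sec62*, *tmed1b* and *tmed6*.

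Of the 6 transcription factors 4 (66.7%) were called higher and 2 not called, where 24.1% of all genes were higher and 25.0% lower. *xbp1* (ENSDARG00000035622), which encodes the factor activated by splicing of its RNA when the ER is loaded, was by far the most abundant, at 590, 593 and 574 TPM in GFP-positive libraries and 405, 418 and 434 TPM in GFP-negative libraries. No library of either population reached the range of the other, and the log2 fold change was 0.59 ± 0.05 (SE; adjusted p = 3.66e-07, edgeR). The spliced and unspliced forms of *xbp1*, which tell whether the factor is active, differ by a short internal stretch and were not analysed here. The Creb3-like factors are ER membrane proteins that are cut free at the Golgi, and Creb3l2 is known in zebrafish for the secretion of cartilage and notochord matrix. *creb3l2* had 47.3, 59.9 and 65.8 TPM in GFP-positive libraries, against 32.0, 45.6 and 42.3 TPM in GFP-negative libraries. The lowest GFP-positive library was thus just above the highest GFP-negative library, with a log2 fold change of 0.64 ± 0.08. The most abundant transcript of *creb3l2* had only 319 bases, and with it alone the log2 fold change was 0.67 and not called. *creb3l3l* (18.6 ± 0.43 TPM in GFP-positive cells against 13.9 ± 0.92 TPM in GFP-negative cells) was called higher by 0.63 on the log2 scale. *creb3l1* was called higher by 0.47 in edgeR, but its TPM values overlapped (12.7 to 13.9 TPM in GFP-positive and 10.7 to 12.8 TPM in GFP-negative libraries). The remaining members of the family averaged at most 1.22 TPM in either population. *creb3l3a* had 0.79, 0.32 and 0.29 TPM in GFP-positive libraries and 0.12, 0.23 and 0.22 TPM in GFP-negative libraries, below the TPM limit for a call, and its log2 fold change of 1.44 became 0.76 without GFP-positive replicate 1. *creb3l3b* had 1.12 to 1.3 TPM in GFP-positive libraries and 0.79 to 1.35 TPM in GFP-negative libraries and was not called.

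Entry into the ER had the largest ratio of summed levels among the 9 roles. The 19 genes of targeting and translocation summed to 7925 ± 603 TPM in GFP-positive cells against 4679 ± 176 TPM in GFP-negative cells, a ratio of 1.69. Of these genes 13 (68.4%) were higher, 4 (21.1%) lower and 2 not called, where 24.1% of all genes were higher and 25.0% lower. The difference was uneven between the complexes. The 4 genes of the Sec61 channel were all higher and summed to 3824 ± 484 TPM in GFP-positive cells against 1948 ± 144 TPM in GFP-negative cells (ratio 1.96). The 4 genes of the translocon-associated protein (TRAP) complex, which sits beside the channel and helps certain signal sequences to enter, were all higher too, at 2668 ± 99.1 TPM in GFP-positive cells against 1534 ± 34.2 TPM in GFP-negative cells (ratio 1.74). The 2 subunits of the SRP receptor were higher with a ratio of 1.46. In contrast, the 6 protein subunits of the SRP itself, which binds the signal sequence in the cytosol, summed to 832 ± 17.4 TPM in GFP-positive cells against 815 ± 12.7 TPM in GFP-negative cells (ratio 1.02), with 2 genes higher, 3 lower and 1 not called. Whether the complexes differed from each other was not tested.

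The Sec61 channel consists of an alpha subunit that forms the pore and of the small subunits beta and gamma. *sec61g*, the gamma subunit, was the most abundant member in both populations, at 2908, 2647 and 2102 TPM in GFP-positive libraries and 1443, 1254 and 1250 TPM in GFP-negative libraries. *sec61b*, the beta subunit, had 966, 911 and 805 TPM in GFP-positive libraries and 397, 320 and 339 TPM in GFP-negative libraries. For both subunits every GFP-positive library was above every GFP-negative library, and GFP-positive replicate 3 was the lowest of its group. The log2 fold changes were 1.00 ± 0.11 for *sec61g* and 1.31 ± 0.09 for *sec61b* (adjusted p = 3.16e-06 and 2.07e-08 in this order, edgeR). The alpha subunit is encoded by 2 zebrafish genes. *sec61a1* averaged 212 ± 6.07 TPM in GFP-positive cells against 174 ± 5.74 TPM in GFP-negative cells (higher by 0.40 on the log2 scale), and *sec61a1l* 166 ± 7.04 TPM in GFP-positive cells against 106 ± 4.96 TPM in GFP-negative cells (0.77). The pore genes were thus higher by less than the small subunits, whose transcripts are short.

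Among the genes of the TRAP complex *ssr3* had 846, 809 and 718 TPM in GFP-positive libraries and 413, 370 and 389 TPM in GFP-negative libraries. The lowest GFP-positive library had well over the highest GFP-negative level, with a log2 fold change of 1.1 ± 0.08. The other 3 subunits were higher by similar or smaller amounts: *ssr2* by 0.94 (406 ± 9.19 TPM in GFP-positive cells against 226 ± 12.9 TPM in GFP-negative cells), *ssr4* by 0.93 (599 ± 22.3 TPM in GFP-positive and 335 ± 3.70 TPM in GFP-negative cells) and *ssr1* by 0.67 (872 ± 10.7 TPM in GFP-positive and 583 ± 10.6 TPM in GFP-negative cells) on the log2 scale. *tram1*, which encodes a membrane protein that contacts entering chains, had a fold change close to that of *sec61b*. It had 222, 221 and 217 TPM in GFP-positive libraries, against 92.4, 95.3 and 97.0 TPM in GFP-negative libraries, a log2 fold change of 1.33 ± 0.06 (adjusted p = 1.16e-10, edgeR). *sec62* and *sec63* serve entry after translation and the recruitment of the chaperone BiP. *sec62* was slightly lower (26.8 ± 0.99 TPM in GFP-positive cells against 29.4 ± 0.75 TPM in GFP-negative cells, a log2 difference of -0.21, not called by limma), and *sec63* was not called (54.5 ± 3.78 TPM in GFP-positive cells against 51.6 ± 2.92 TPM in GFP-negative cells).

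**Figure D2:**
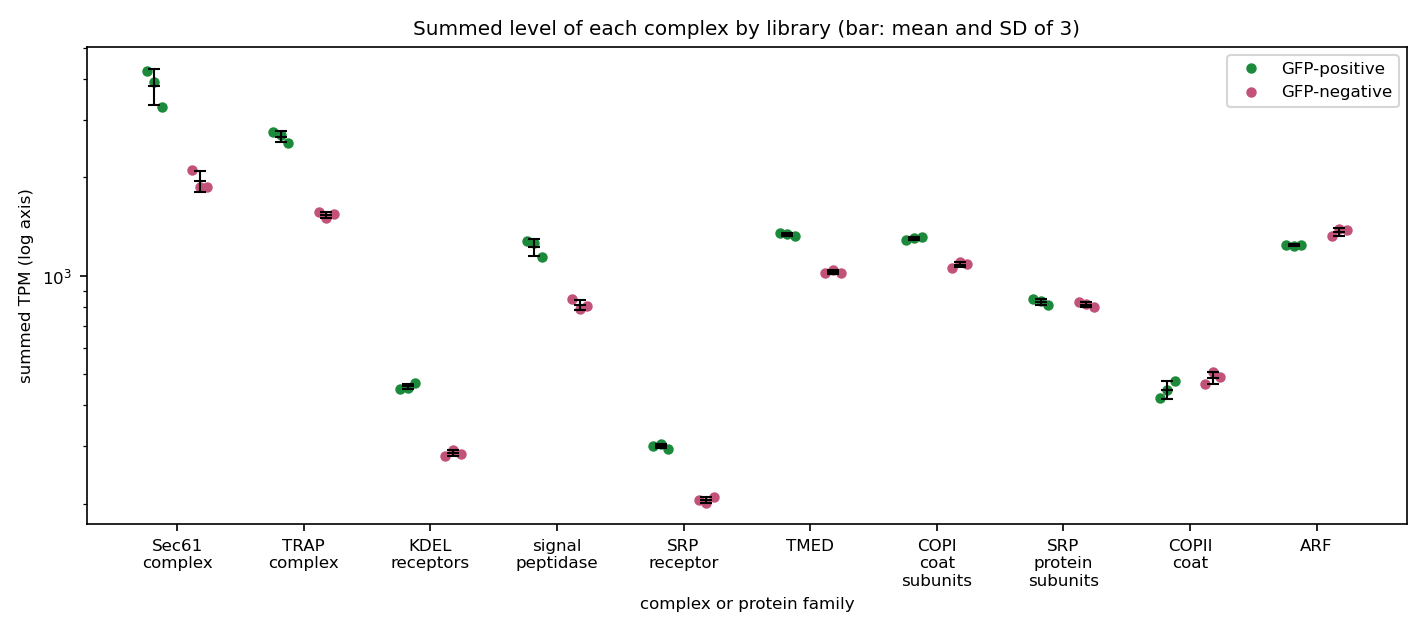
Summed TPM of the genes of each complex or family in each library (log axis), GFP-positive on the left and GFP-negative on the right of each pair, with bars for the mean and SD of 3 libraries. The Sec61, TRAP, KDEL receptor, signal peptidase and SRP receptor sums lie apart between the populations, while the SRP proteins overlap at 812 to 846 TPM in GFP-positive libraries and 802 to 827 TPM in GFP-negative libraries.

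The SRP subunits went in different directions. *srp68*, which anchors the RNA of the particle, had 36.2, 38.0 and 45.7 TPM in GFP-positive libraries and 64.7, 68.0 and 60.5 TPM in GFP-negative libraries. All 3 GFP-positive libraries were below the GFP-negative ones, and the log2 fold change of -0.58 ± 0.07 was the lowest of the genes of entry into the ER (adjusted p = 9.08e-06, edgeR). *srp54*, the GTPase that holds the signal sequence, was lower at 148, 150 and 158 TPM in GFP-positive libraries, against 187, 201 and 198 TPM in GFP-negative libraries (log2 fold change -0.25 ± 0.05). *srp19* was called lower by a small margin (86.7 ± 7.14 TPM in GFP-positive cells against 109 ± 3.65 TPM in GFP-negative cells), and the call was lost without GFP-positive replicate 2 or 3 or GFP-negative replicate 1 or 3 (adjusted p = 0.0636 to 0.155, edgeR). The subunits of the Alu domain, which slows the ribosome, were higher. *srp9* averaged 219 ± 1.55 TPM in GFP-positive cells against 140 ± 6.58 TPM in GFP-negative cells, with a log2 fold change of 0.72. Its partner *srp14* was called higher by only 0.27, with overlapping TPM values (221 to 261 TPM in GFP-positive and 203 to 228 TPM in GFP-negative libraries), and lost the call without GFP-positive replicate 1 or 2 or GFP-negative replicate 3 (adjusted p = 0.0643 to 0.0728, edgeR). *srp72* was not called (90.1 ± 3.30 TPM in GFP-positive cells against 91.9 ± 4.32 TPM in GFP-negative cells). The receptor subunits *srpr* and *srprb* were higher by 0.45 and 0.76 on the log2 scale.

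Signal peptidase, which cuts off the signal peptide inside the ER, was higher in all 4 genes, where 24.1% of all genes were higher and 25.0% lower. Its genes summed to 1223 ± 74.7 TPM in GFP-positive cells against 813 ± 30.7 TPM in GFP-negative cells. *spcs1*, a small accessory subunit, had 347, 343 and 272 TPM in GFP-positive libraries, against 184, 158 and 161 TPM in GFP-negative libraries. As for the small Sec61 subunits, GFP-positive replicate 3 was the lowest of its group and still above all GFP-negative libraries, with a log2 fold change of 1.02 ± 0.11. The catalytic subunit *sec11a* averaged 327 ± 21.5 TPM in GFP-positive cells against 189 ± 13.7 TPM in GFP-negative cells (higher by 0.88 on the log2 scale), and *spcs2* 388 ± 3.70 TPM in GFP-positive cells against 289 ± 4.13 TPM in GFP-negative cells (0.53). *spcs3* was higher by only 0.23 on the log2 scale (188 ± 7.87 TPM in GFP-positive cells against 168 ± 8.09 TPM in GFP-negative cells), a call lost without GFP-positive replicate 1 or 2 or GFP-negative replicate 2 (adjusted p = 0.0662 to 0.109, edgeR).

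The largest difference of the whole group was that of *agr1*, among the genes of disulfide formation. Agr1 and Agr2 are small relatives of the protein disulfide isomerases that stay in the ER, and Agr2 is known in mammals for the folding of mucins. *agr1* (ENSDARG00000060682) had 101, 93.0 and 92.9 TPM in GFP-positive libraries, against 3.10, 2.31 and 1.59 TPM in GFP-negative libraries. The 3 GFP-positive libraries were close to each other and far above every GFP-negative library, and the log2 fold change was 5.43 ± 0.16, or 43.0-fold (adjusted p = 2.16e-12, edgeR). *agr2* (ENSDARG00000070480) had 46.1, 43.4 and 43.8 TPM in GFP-positive libraries, against 15.2, 14.6 and 13.1 TPM in GFP-negative libraries. It was higher in all 3 GFP-positive libraries by a log2 fold change of 1.73 ± 0.10 and is also on the hatching gland and mucous cell marker lists. The pair thus changed its make-up: *agr1* accounted for 68.0% to 68.7% of the summed TPM of both genes in GFP-positive libraries and for 10.8% to 16.9% in GFP-negative libraries.

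The classical disulfide isomerases, which make and rearrange disulfide bonds in many cargo proteins, differed little. The 5 *pdia* genes summed to 718 ± 7.66 TPM in GFP-positive cells against 710 ± 17.2 TPM in GFP-negative cells. Of these genes 2 (40.0%) were higher and 3 not called, where 24.1% of all genes were higher and 25.0% lower. *pdia6* had 365, 370 and 375 TPM in GFP-positive libraries and 313, 331 and 328 TPM in GFP-negative libraries, a small difference without overlap (log2 fold change 0.30 ± 0.05). *pdia5* was higher by 0.60 on the log2 scale (44.9 ± 3.04 TPM in GFP-positive cells against 32.2 ± 1.38 TPM in GFP-negative cells). *pdia3*, which acts on glycoproteins, had 258, 245 and 248 TPM in GFP-positive libraries and 288, 294 and 297 TPM in GFP-negative libraries. *pdia4* had 50.6, 51.1 and 55.0 TPM in GFP-positive libraries and 58.2, 59.9 and 63.9 TPM in GFP-negative libraries. Neither was called by edgeR (log2 fold changes -0.12 and 0.00), and both were lower with limma on TPM (-0.23 and -0.21), so whether they were called rests on the scale. *pdia2* was at 0.51 to 0.57 TPM in GFP-positive libraries and 0.17 to 0.34 TPM in GFP-negative libraries, under the TPM limit. Of the oxidases that pass electrons from the isomerases to oxygen, *ero1b* was higher by 0.44 (32.2 ± 2.20 TPM in GFP-positive cells against 27.1 ± 0.46 TPM in GFP-negative cells), and *ero1a* stayed under 1 TPM in all libraries.

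**Figure D3:**
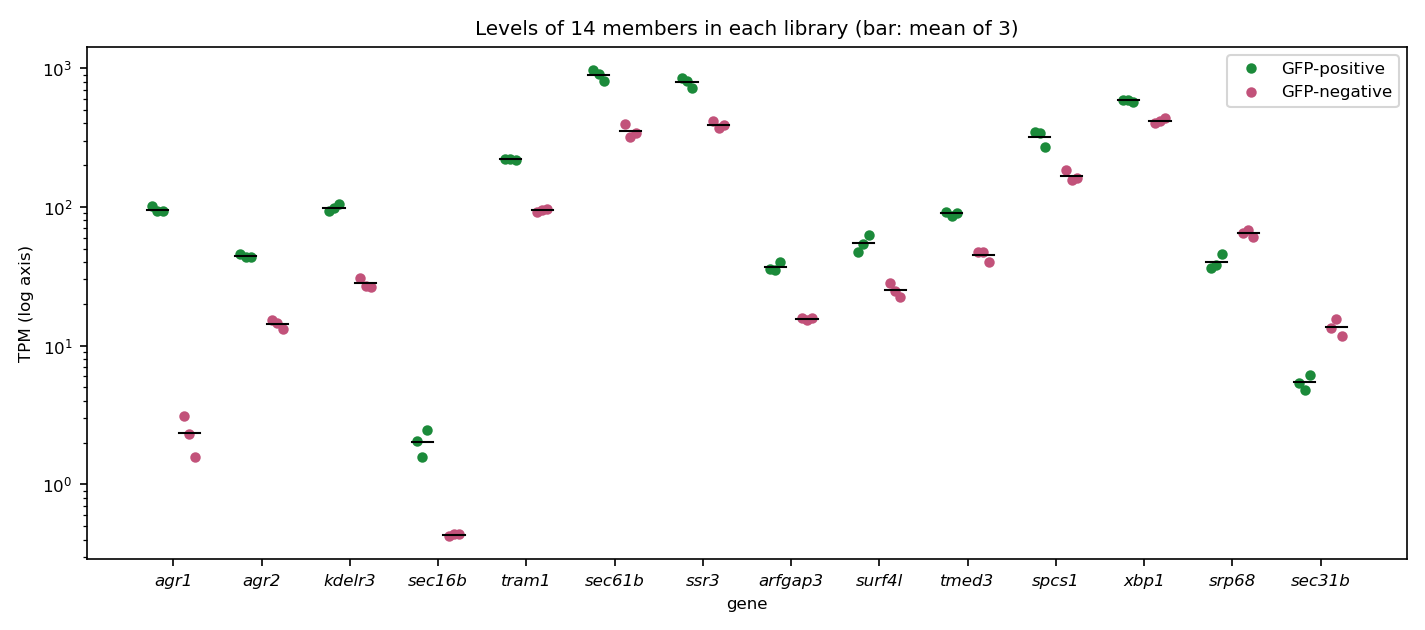
TPM of 14 members in each library (log axis), GFP-positive on the left and GFP-negative on the right for each gene, with a bar at the mean of 3 libraries. *agr1* shows the widest gap (92.9 to 101 TPM in GFP-positive and 1.59 to 3.10 TPM in GFP-negative libraries), and *srp68* and *sec31b* lie lower in the GFP-positive libraries.

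The genes of COPII, the coat of vesicles that leave the ER, were called at shares near those of all genes. Of the 11 genes 4 (36.4%) were higher, 3 (27.3%) lower and 4 not called, where 24.1% of all genes were higher and 25.0% lower, and they summed to 447 ± 27.5 TPM in GFP-positive cells against 486 ± 20.3 TPM in GFP-negative cells. *sec16b*, which organizes ER exit sites, was the gene of the coat with the largest fold change but a low level. It had 2.06, 1.58 and 2.47 TPM in GFP-positive libraries and 0.43, 0.44 and 0.44 TPM in GFP-negative libraries, without overlap (log2 fold change 2.39 ± 0.18, adjusted p = 6.87e-08, edgeR). *sec23a* and *sec23b* encode the inner coat subunit that activates the GTPase of the coat. *sec23a* had 9.09, 11.5 and 12.7 TPM in GFP-positive libraries, against 5.48, 5.96 and 5.23 TPM in GFP-negative libraries (log2 fold change 1.07 ± 0.08). *sec23b*, at a higher level, was not called (53.0 ± 2.90 TPM in GFP-positive cells against 53.9 ± 5.40 TPM in GFP-negative cells).

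The Sec24 subunits, which bind cargo and differ in the signals they recognize, were not called alike. *sec24b* had 11.2, 15.9 and 16.3 TPM in GFP-positive libraries, against 19.6, 21.6 and 23.5 TPM in GFP-negative libraries (log2 fold change -0.40 ± 0.07). *sec24c* had 23.4, 22.9 and 27.4 TPM in GFP-positive libraries, against 45.9, 47.6 and 43.9 TPM in GFP-negative libraries. Both genes were lower in all 3 GFP-positive libraries. For *sec24c* the fitted log2 fold change of -0.39 ± 0.09 came from counts, in which short transcripts weigh less than in TPM, and with the most abundant transcript alone it was -0.21 and not called. *sec24d*, known in zebrafish for the export of cartilage collagen, was called higher by 0.29 with overlapping values (4.35 to 6.45 TPM in GFP-positive and 4.50 to 5.41 TPM in GFP-negative libraries). That call was lost in 5 of the 6 fits with 1 library left out, in every fit but that without GFP-positive replicate 1 (adjusted p = 0.0552 to 0.151, edgeR). *sec24a* was not called by edgeR (80.0 ± 5.65 TPM in GFP-positive cells against 91.7 ± 5.51 TPM in GFP-negative cells). With limma on TPM *sec24a* was lower (-0.19, adjusted p = 0.0379), and *sec24d* was not called.

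Of the outer coat, *sec31b* was lower at 5.36, 4.81 and 6.11 TPM in GFP-positive libraries, against 13.5, 15.6 and 11.8 TPM in GFP-negative libraries (log2 fold change -0.77 ± 0.09, adjusted p = 4.20e-06, edgeR). Its more abundant relative *sec31a* was called higher by 0.26 with overlapping values (19.9, 21.8 and 27.4 TPM in GFP-positive libraries and 19.5, 21.8 and 21.1 TPM in GFP-negative libraries), and lost the call without GFP-negative replicate 1 (log2 fold change 0.23, adjusted p = 0.059). The partner of both, *sec13*, was the most abundant gene of the coat and was not called (214 ± 7.13 TPM in GFP-positive cells against 213 ± 4.16 TPM in GFP-negative cells). *sec23ip*, which binds Sec23, was not called either.

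Receptors that select cargo or bring back ER residents were mostly higher, 13 of 16 genes (81.2%), with 2 (12.5%) lower and 1 not called, where 24.1% of all genes were higher and 25.0% lower. They summed to 1900 ± 3.54 TPM in GFP-positive cells against 1370 ± 16.7 TPM in GFP-negative cells, a ratio of 1.39. The KDEL receptors bind the retrieval signal at the end of ER residents in the Golgi and return them, and all 3 of the genes were higher. *kdelr3* had 93.2, 98.8 and 104 TPM in GFP-positive libraries, against 30.7, 27.0 and 26.7 TPM in GFP-negative libraries. Each GFP-positive library was far above every GFP-negative library, and the log2 fold change was 1.92 ± 0.07 (adjusted p = 5.79e-11, edgeR). *kdelr2b* (196 ± 5.63 TPM in GFP-positive cells against 124 ± 1.88 TPM in GFP-negative cells) and *kdelr2a* (162 ± 9.83 TPM in GFP-positive cells against 133 ± 9.14 TPM in GFP-negative cells) were higher by 0.76 and 0.49 on the log2 scale.

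Surf4 is a receptor for soluble cargo on its way out of the ER. *surf4l* had 47.6, 53.8 and 62.5 TPM in GFP-positive libraries, against 28.1, 24.6 and 22.3 TPM in GFP-negative libraries, a log2 fold change of 1.23 ± 0.10 with no overlap. *surf4* was higher by 0.63 (52.1 ± 1.46 TPM in GFP-positive cells against 36.2 ± 4.07 TPM in GFP-negative cells). The p24 (Tmed) proteins carry cargo such as GPI-anchored proteins in both coats. Of the 11 genes 8 (72.7%) were higher, 2 (18.2%) lower and 1 not called, where 24.1% of all genes were higher and 25.0% lower. The share of lower Tmed genes was thus not far from that of all genes. The Tmed genes summed to 1336 ± 15.7 TPM in GFP-positive cells against 1023 ± 14.0 TPM in GFP-negative cells. *tmed3* had 91.7, 86.7 and 91.0 TPM in GFP-positive libraries, against 47.4, 47.5 and 40.4 TPM in GFP-negative libraries, and its log2 fold change of 1.1 ± 0.07 was the largest of the family. The abundant *tmed10* (413 ± 17.1 TPM in GFP-positive cells against 320 ± 2.47 TPM in GFP-negative cells), *tmed2* (323 ± 8.27 TPM in GFP-positive and 266 ± 11.7 TPM in GFP-negative cells) and *tmed9* (236 ± 6.19 TPM in GFP-positive and 159 ± 4.03 TPM in GFP-negative cells) were higher by 0.48, 0.42 and 0.68 on the log2 scale. *tmed7*, *tmed1a* and *tmed5* were higher by 0.71, 0.90 and 0.34. *tmed8* was called higher by 0.31 although its mean TPM was not (4.39 ± 0.92 TPM in GFP-positive cells against 4.42 ± 0.20 TPM in GFP-negative cells), and lost the call without GFP-positive replicate 2 or 3 or GFP-negative replicate 1 or 2 (adjusted p = 0.0753 to 0.127, edgeR). *tmed4* was not called.

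The exceptions in the family were *tmed1b* and *tmed6*. *tmed1b* had 59.0, 58.6 and 70.6 TPM in GFP-positive libraries, against 78.5, 82.7 and 83.0 TPM in GFP-negative libraries (log2 fold change -0.28 ± 0.07). *tmed6* had 3.0, 1.86 and 2.35 TPM in GFP-positive libraries, against 4.38, 3.83 and 5.32 TPM in GFP-negative libraries (log2 fold change -0.81 ± 0.28). Neither gene overlapped between the populations, but *tmed6* was low and lost its call without GFP-positive replicate 2 or 3 or GFP-negative replicate 3 (adjusted p = 0.0544 to 0.0975, edgeR).

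COPI and the ARF cycle, which drive return transport from the Golgi, differed less. Their 20 genes summed to 2647 ± 24.7 TPM in GFP-positive cells against 2547 ± 64.0 TPM in GFP-negative cells, with 11 (55.0%) higher, 4 (20.0%) lower and 5 not called. Of all genes 24.1% were higher and 25.0% lower, so the share of lower genes was near that of all genes. Of the 7 coat genes 6 were called higher and 1, *copb2*, was not called, and the sums were 1299 ± 15.6 TPM in GFP-positive cells against 1081 ± 22.0 TPM in GFP-negative cells (ratio 1.2). *copz2*, a variant zeta subunit, had 41.8, 39.8 and 40.7 TPM in GFP-positive libraries, against 20.3, 21.7 and 23.6 TPM in GFP-negative libraries (log2 fold change 1.1 ± 0.07). Its more abundant counterpart *copz1* was higher by only 0.23 (269 ± 6.30 TPM in GFP-positive cells against 245 ± 3.77 TPM in GFP-negative cells). *cope*, the most abundant coat gene, was higher by 0.61 (476 ± 20.7 TPM in GFP-positive cells against 336 ± 3.72 TPM in GFP-negative cells), and *copg2* by 0.45. The calls of *copa* and *copb1* rested on log2 fold changes of 0.18 with overlapping TPM values, and that of *copb1* was lost without GFP-negative replicate 1 (adjusted p = 0.0549, edgeR).

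ARF GTPases recruit the coat, and ARFGAPs switch them off so that the coat falls away. *arfgap3* had 35.5, 35.3 and 40.0 TPM in GFP-positive libraries, against 15.8, 15.2 and 15.8 TPM in GFP-negative libraries, with a log2 fold change of 1.41 ± 0.07 (adjusted p = 8.55e-10, edgeR). *arfgap2* was called lower by a small margin (70.7 ± 8.28 TPM in GFP-positive cells against 87.2 ± 4.87 TPM in GFP-negative cells), a call lost without GFP-positive replicate 1 or 2 or GFP-negative replicate 2 or 3 (adjusted p = 0.0651 to 0.145). The 11 ARF genes summed to 1240 ± 6.32 TPM in GFP-positive cells against 1363 ± 37.9 TPM in GFP-negative cells, with 4 (36.4%) higher, 3 (27.3%) lower and 4 not called, shares near the 24.1% and 25.0% of all genes. *arf1*, the ARF best known for COPI, had 68.8, 67.0 and 69.6 TPM in GFP-positive libraries, against 85.7, 90.7 and 84.6 TPM in GFP-negative libraries (log2 fold change -0.22 ± 0.05). *arf6a*, which acts at the plasma membrane, had 41.5, 39.9 and 38.8 TPM in GFP-positive libraries, against 49.8, 49.8 and 54.1 TPM in GFP-negative libraries. Its log2 fold change of -0.24 ± 0.07 was not called without GFP-negative replicate 3 (-0.20, adjusted p = 0.0695, edgeR). *arf2a* was called lower by 0.12 on the log2 scale, and lost the call without any library other than GFP-positive replicate 3 (adjusted p = 0.0526 to 0.143, edgeR) and with the replicate number as a block (adjusted p = 0.0884).

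*arf2b* had 410, 411 and 396 TPM in GFP-positive libraries and 444, 443 and 456 TPM in GFP-negative libraries, and was not called by edgeR (log2 fold change -0.02) but lower with limma on TPM (-0.14, adjusted p = 0.013). *arf5* was called higher by 0.19 with overlapping values (421 to 436 TPM in GFP-positive and 405 to 425 TPM in GFP-negative libraries). The large fold changes of the family lay at very low levels. *arf3a* had 1.85, 1.83 and 3.22 TPM in GFP-positive libraries and 0.65, 0.34 and 1.24 TPM in GFP-negative libraries (log2 fold change 1.60 ± 0.35). *arf3b* had 1.1, 1.28 and 1.09 TPM in GFP-positive libraries and 0.44, 0.31 and 0.63 TPM in GFP-negative libraries (1.78 ± 0.52). The populations did not overlap for either gene. The symbol *arf4a* belonged to 2 gene records, of which ENSDARG00000045989 was higher by 0.46 on the log2 scale (38.2 ± 2.80 TPM in GFP-positive cells against 30.2 ± 1.56 TPM in GFP-negative cells) and ENSDARG00000103858 was not called at 2.37 ± 0.65 TPM in GFP-positive cells against 2.51 ± 0.51 TPM in GFP-negative cells. *arf4b* and *arf6b* were not called.

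SNAREs of ER and Golgi vesicles drive fusion with the target membrane. Of the 6 genes 4 (66.7%) were higher and 2 (33.3%) lower, where 24.1% of all genes were higher and 25.0% lower. The share of lower genes in this role, both of them Sec22 relatives described below, was thus near that of all genes. *bet1l* had 46.0, 43.7 and 39.1 TPM in GFP-positive libraries, against 29.8, 24.6 and 31.9 TPM in GFP-negative libraries (log2 fold change 0.69 ± 0.12). *sec22bb*, a copy of the gene for the SNARE Sec22b, had 46.0, 50.9 and 46.2 TPM in GFP-positive libraries, against 37.0, 34.1 and 34.5 TPM in GFP-negative libraries (0.47 ± 0.08). The relatives *sec22a* and *sec22c*, whose products lack the fusion motif in mammals, were lower. *sec22a* had 24.2, 24.1 and 24.1 TPM in GFP-positive libraries, against 42.4, 43.4 and 40.8 TPM in GFP-negative libraries (log2 fold change -0.51 ± 0.08). *sec22c* had 2.75, 2.34 and 2.26 TPM in GFP-positive libraries, against 4.71, 4.60 and 4.61 TPM in GFP-negative libraries (-0.82 ± 0.20). In these genes all 3 GFP-positive libraries were below the GFP-negative ones. *sec22ba* was called higher by 0.33 with overlapping values, and *bet1* by 0.27, a call lost without GFP-positive replicate 1 or 2 or GFP-negative replicate 1 or 2 (adjusted p = 0.0639 to 0.117, edgeR).

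Golgins are long coiled-coil proteins that tether vesicles to the Golgi. Of the 8 tested genes with such symbols 6 were higher and 2 not called, where 24.1% of all genes were higher and 25.0% lower. The log2 fold changes of the 6 called genes were 0.25 to 0.54. The differences were small against the spread in TPM: only *golga7ba* and *golga5* lay above without overlap, where 24.2% of all genes tested did so. Limma did not make 4 of the 6 calls. *golga5* had 21.8, 22.1 and 23.0 TPM in GFP-positive libraries and 19.3, 20.3 and 18.1 TPM in GFP-negative libraries (log2 fold change 0.33 ± 0.07). *golga3* had 3.27, 4.16 and 4.48 TPM in GFP-positive libraries and 3.82, 3.08 and 3.0 TPM in GFP-negative libraries (0.41 ± 0.11). *golga2*, which encodes the cis-Golgi protein GM130, was high in GFP-positive replicate 3 alone (16.5, 20.0 and 29.6 TPM in GFP-positive libraries and 20.6, 22.2 and 20.5 TPM in GFP-negative libraries). Its call was lost without GFP-positive replicate 3 (log2 fold change 0.14, adjusted p = 0.058, edgeR) or without GFP-negative replicate 1 or 3. *golga1* was not called, at 8.95, 8.27 and 12.9 TPM in GFP-positive libraries and 8.89, 9.18 and 9.10 TPM in GFP-negative libraries. *golga7*, which despite its symbol encodes a partner of a palmitoyl transferase, was the most abundant of these genes and made up most of their sum. It had 186, 187 and 183 TPM in GFP-positive libraries and 220, 230 and 233 TPM in GFP-negative libraries, and was not called by edgeR (log2 fold change -0.13) but lower with limma on TPM (-0.30). Its relative *golga7ba* had 2.67, 3.17 and 3.04 TPM in GFP-positive libraries and 2.08, 2.31 and 2.20 TPM in GFP-negative libraries. It was higher by 0.54 ± 0.12, and by 0.10 and not called with the most abundant transcript alone. *golga7bb*, at 0.0835 TPM or less in every library, was the member that did not pass the filter.

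Zebrafish keep many of these genes as pairs of duplicates or close relatives, and the share of each pair showed whether both genes moved alike. In 3 of the 18 pairs examined the genes were called in opposite directions, where 24.1% of all genes were called higher and 25.0% lower. The share of such pairs in the whole series was not determined, so the count cannot be read as particular to these pairs. In 1 of the 3, *tmed1a* with *tmed1b*, the calls stayed opposite without GFP-negative replicate 1, with limma and with the most abundant transcript alone. The other pairs were no longer called in opposite directions there. *sec31a* made up 80.8 ± 1.78% of its pair with *sec31b* in GFP-positive cells against 60.5 ± 3.09% in GFP-negative cells. *tmed1a* made up 25.4 ± 2.29% of its pair with *tmed1b* in GFP-positive cells against 13.1 ± 0.87% in GFP-negative cells. Summed before the fit, both pairs were level, with log2 fold changes of 0.00 for Sec31 and 0.01 for Tmed1. *sec24c* made up 81.6 ± 2.45% of its pair with *sec24d* in GFP-positive cells against 90.4 ± 0.63% in GFP-negative cells, and the summed pair was lower by a log2 fold change of -0.31. By contrast, *sec61a1* with *sec61a1l* and *surf4* with *surf4l* were higher in both genes, and the pairs by 0.55 and 0.93 on the log2 scale. In *surf4* the share of the first gene was 49.0 ± 2.89% in GFP-positive cells against 59.1 ± 4.86% in GFP-negative cells. The counting split reads between similar copies by estimation, so the shares of close copies are less certain than their sums.

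**Figure D4:**
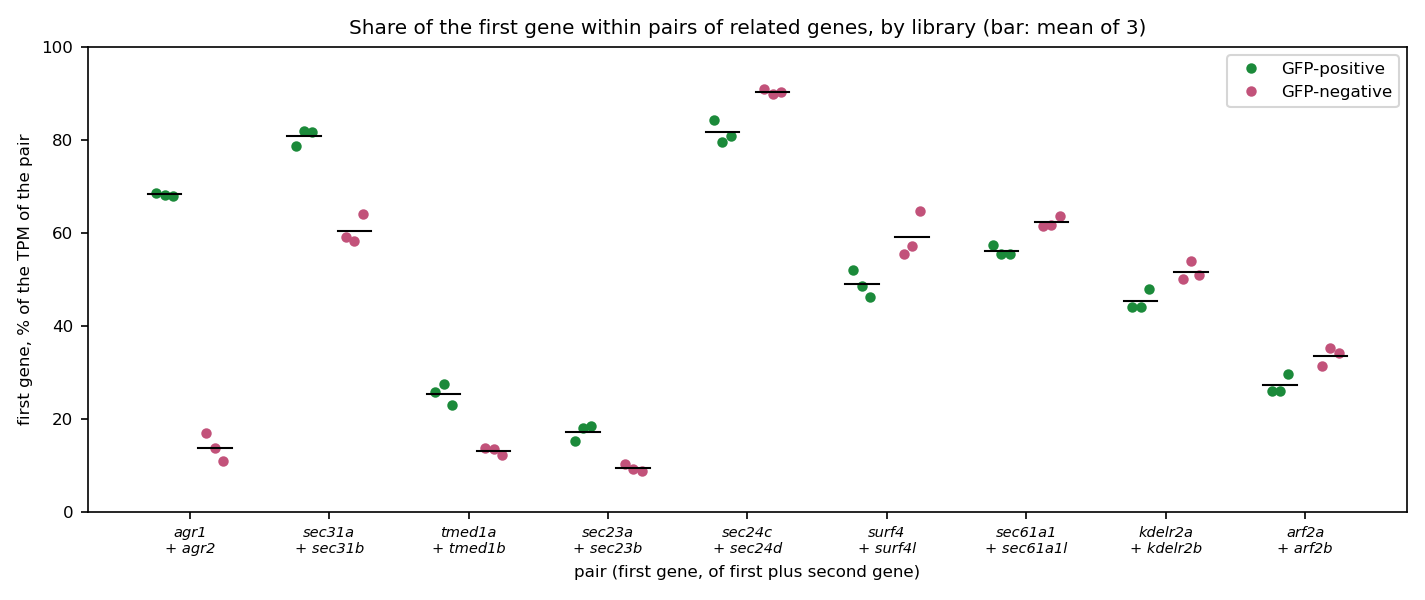
Share of the first gene in the summed TPM of 9 pairs of related genes (vertical axis, percent), GFP-positive on the left and GFP-negative on the right, 1 point a library and a bar at the mean of 3. The share of *agr1* lies at 68.0% to 68.7% in GFP-positive and 10.8% to 16.9% in GFP-negative libraries. In these 9 pairs, picked from those examined, the shares of the populations do not overlap. Other pairs examined did overlap, such as *arf3a* with *arf3b* (58.8% to 74.7% in GFP-positive and 53.0% to 66.3% in GFP-negative libraries).

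Several members also differed in which transcript was used. Of the 64 members with several transcripts, a tested gene and a mean above 1 TPM, 17 had a transcript whose share of the gene's TPM differed by 10 points or more between the populations. The share of such genes among all genes was not determined, so the count cannot be read as particular to the members. In several genes that were lower in GFP-positive cells a short transcript held a smaller share there. The 760-base transcript of *arf2a* held 6.83%, 6.63% and 14.0% of the gene's TPM in GFP-positive libraries and 25.6%, 36.7% and 35.4% in GFP-negative libraries. The full transcript of 2600 bases had 137 ± 4.79 TPM in GFP-positive cells against 151 ± 1.08 TPM in GFP-negative cells, so that most of the difference in the gene's TPM came from the short form. The 767-base transcript of *sec22a* held 7.65 ± 1.33% in GFP-positive cells against 25.5 ± 2.01% in GFP-negative cells, and the 422-base transcript of *sec31b* 2.22 ± 3.84% in GFP-positive cells against 24.4 ± 6.82% in GFP-negative cells. The 4172-base transcript of *sec31b* was lower as well, at 3.97 ± 0.79 TPM in GFP-positive cells against 8.24 ± 0.98 TPM in GFP-negative cells. For *sec24c* a 484-base transcript held 14.0%, 0.02% and 0.44% in GFP-positive libraries and 29.4%, 21.7% and 19.6% in GFP-negative libraries. *tmed5* shifted between transcripts of 1480 and 1524 bases, of which the shorter held 45.8%, 28.5% and 28.9% in GFP-positive libraries and 10.2%, 18.2% and 9.16% in GFP-negative libraries. Transcript shares are estimates from reads that several transcripts share and were not tested.

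Other genes of the pathway, taken by role and not part of the 100, followed in part. Of the 12 sensors and effectors of the unfolded protein response, 7 were higher, 0 lower and 5 not called (median log2 fold change 0.46). Of all genes tested 24.1% were higher and 25.0% lower. The count of 0 lower genes was the same at an unadjusted p under 0.05 in edgeR and limma and among the calls of DESeq2 and limma. It was 1 at an unadjusted p under 0.05 in DESeq2, and 1 called gene without GFP-positive replicate 3. *atf6*, the sensor that moves to the Golgi to be cut, had 16.3, 15.9 and 18.9 TPM in GFP-positive libraries, against 9.95, 12.4 and 11.4 TPM in GFP-negative libraries (0.81 ± 0.07). The effector *atf4b* was not called despite its high level (654 ± 13.3 TPM in GFP-positive cells against 682 ± 8.71 TPM in GFP-negative cells). Its relative *atf4a* was higher by 0.57 without overlap (387 ± 9.26 TPM in GFP-positive cells against 280 ± 7.23 TPM in GFP-negative cells). The sensor kinase *eif2ak3* (14.5 ± 2.99 TPM in GFP-positive cells against 16.4 ± 2.80 TPM in GFP-negative cells) and *ern2*, a relative of the kinase that splices *xbp1*, at 0.75 ± 0.37 TPM in GFP-positive cells against 0.48 ± 0.18 TPM in GFP-negative cells, were not called.

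Of the 21 ER chaperones and folding enzymes, 12 were higher, 5 lower and 4 not called (median log2 fold change 0.24), where 24.1% of all genes were higher and 25.0% lower. The share of lower genes was thus near that of all genes. *calr3b*, a calreticulin, had 320, 362 and 393 TPM in GFP-positive libraries, against 156, 163 and 142 TPM in GFP-negative libraries (1.33 ± 0.06). *dnajb9b*, a co-chaperone of BiP, was higher by 1.52 (16.7 ± 2.75 TPM in GFP-positive cells against 6.16 ± 0.25 TPM in GFP-negative cells). Their relatives differed less: *calr3a* was higher by 0.24, and *calr* (311 ± 7.39 TPM in GFP-positive cells against 366 ± 15.1 TPM in GFP-negative cells) and *dnajb9a* were not called. The gene of BiP itself, *hspa5*, was higher by only 0.22 (2008 ± 56.3 TPM in GFP-positive cells against 1875 ± 99.7 TPM in GFP-negative cells). In the opposite direction, *hsp90b1*, the HSP90 of the ER, had 61.4, 59.3 and 72.9 TPM in GFP-positive libraries, against 162, 177 and 185 TPM in GFP-negative libraries (log2 fold change -1.32 ± 0.06, adjusted p = 6.56e-10, edgeR). The lectin chaperone *canx* was lower too (239 ± 26.2 TPM in GFP-positive cells against 319 ± 8.89 TPM in GFP-negative cells, a log2 difference of -0.30). The 5 lower calls became 2 without GFP-positive replicate 2, 3 without GFP-negative replicate 1, 2 or 3, and 3 with the replicate number as a block.

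Of the 11 subunits of the oligosaccharyltransferase, which attaches N-glycans as chains enter the ER, 8 were higher, 1 lower and 2 not called (median log2 fold change 0.40), against 24.1% higher and 25.0% lower over all genes. The small subunits *tmem258* (433, 432 and 394 TPM in GFP-positive libraries, against 222, 200.1 and 199.9 TPM in GFP-negative libraries) and *krtcap2* (63.0, 62.4 and 55.7 TPM in GFP-positive libraries, against 38.3, 31.9 and 32.4 TPM in GFP-negative libraries) were higher by 1.05 and 0.90 on the log2 scale. The catalytic subunit *stt3a* was not called (376 ± 24.3 TPM in GFP-positive cells against 420 ± 10.9 TPM in GFP-negative cells). *tusc3* was lower by a log2 fold change of -0.34 (32.3 ± 5.0 TPM in GFP-positive cells against 42.1 ± 3.86 TPM in GFP-negative cells), a call lost without GFP-positive replicate 1, which left 0 lower subunits.

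Of the 47 genes of ER exit sites, the intermediate compartment and the cis-Golgi, 21 were higher, 5 lower and 21 not called (median log2 fold change 0.16), against 24.1% higher and 25.0% lower over all genes. *lman1*, the lectin receptor ERGIC-53 for glycoproteins, had 79.6, 78.7 and 83.2 TPM in GFP-positive libraries, against 21.0, 27.2 and 23.2 TPM in GFP-negative libraries (1.95 ± 0.06, adjusted p = 5.94e-12, edgeR). *sar1ab*, a copy of the gene for the GTPase that starts the COPII coat, had 13.9, 14.2 and 13.0 TPM in GFP-positive libraries, against 7.17, 7.38 and 6.32 TPM in GFP-negative libraries (1.36 ± 0.12). Its far more abundant relative *sar1b* was called higher by only 0.16, with overlapping values (154 ± 9.40 TPM in GFP-positive cells against 147 ± 4.23 TPM in GFP-negative cells). The SNAREs *bnip1b* (2.47 ± 0.10 TPM in GFP-positive cells against 3.81 ± 0.07 TPM in GFP-negative cells) and *ykt6* (11.2 ± 0.66 TPM in GFP-positive cells against 16.2 ± 0.82 TPM in GFP-negative cells) were lower by log2 fold changes of -0.50 and -0.43.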

How the data were processed

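Total RNA of sorted cells was amplified with SMART-Seq v4 and made into Nextera XT libraries, a method that keeps no strand, so overlapping and antisense genes cannot be told apart. Per the labels and the study's methods, reads were trimmed with Trimmomatic and assigned with kallisto to zv10 (danRer10) cDNA, and the authors deposited estimated counts and TPM values by transcript. TPM is scaled by length and library, and estimated counts are not. The submitters' processing notes name Trimmomatic 0.35, kallisto 0.41 and sleuth. The TPM values of the library tables and of the deposited comparison table were equal in 100% of transcripts (tolerance 1e-06); the effects, p-values and q-values of that table, which are the authors' own comparison, were not used. Near-identical copies share reads, which kallisto divides by estimation. Coordinates, promoters and protein sequences were not analysed here.

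Estimated counts were summed per Ensembl gene, rounded (58.1% were not whole) and tested in R 4.3.3 with edgeR 4.0.16 (TMM, filterByExpr, quasi-likelihood F test, Benjamini-Hochberg adjustment over 20944 genes). Standard errors were derived from the log2 fold change and F. The libraries had a common biological coefficient of variation of 0.0952. Alternatives were DESeq2 1.42.0, limma 3.58.1 on log2(TPM + 1) with and without a filter and on log2(TPM + 0.1), RLE factors or no TMM, all genes with any count, the most abundant transcript, summed pairs, a block for the replicate number, leaving out libraries singly, an adjusted p under 0.01 and TPM limits of 5 or none. A marker gene of the planned periderm list is not reported here. The members, their roles, the other pathway lists and the marker lists were chosen with earlier results of these data known. Genes named by rule were *agr1*, *agr2*, *xbp1* and the *creb3l* genes, and the 2 highest and 2 lowest log2 fold changes of each role and list. The rule also took the 10 largest called fold changes, the 5 most abundant members of each population and pairs called in opposite directions. Some of these genes were given as means with SD and not for each library. Further members and genes of the other lists were named after their values were seen, some of them with values for each library. Each batch of embryos gave both populations, but the labels do not say that libraries with the same number came from the same batch, so p-values measure the spread between these libraries.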

Additional observations from a re-analysis of the deposited data

How the results depend on the processing

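The members called higher numbered 64, and 49 to 66 under the alternatives (58 to 63 with 1 library left out); those called lower numbered 15, and 9 with an adjusted p under 0.01, 10 to 15 with 1 library left out and 11 to 19 otherwise. DESeq2 made all 79 calls of the members. The members' median of 0.40 was 0.2039 with limma on log2(TPM + 1), with or without the filter, and 0.2265 on log2(TPM + 0.1), and 0.37 to 0.42 with 1 library left out; the median of all genes was then lower too (-0.11 and -0.12). The 5 lower ER chaperones became 3 with the replicate block, 2 with an adjusted p under 0.01, and 2 to 6 with 1 library left out. Lower genes of the unfolded protein response numbered 1 with the most abundant transcript and 0 to 1 with 1 library left out, and lower oligosaccharyltransferase subunits numbered 2 in the 3 limma settings, 0 with an adjusted p under 0.01, and 0 to 1 with 1 library left out. Values that changed sign were near 0 or came from summed pairs: with 1 library left out *arf2b* ranged over -0.0615 to 0.0316 and *golga1* over -0.0179 to 0.0984 (both turned without GFP-positive replicate 3) and *pdia4* over -0.0428 to 0.0302 (turned without GFP-positive replicate 3 or GFP-negative replicate 1 or 3), *pdia4* was 0.0300 with the most abundant transcript, and summed with their partners *sec24d* was -0.3080, *sec31b* 0.0040 and *tmed1b* 0.0095; the causes were not tested. Of the comparisons of single named genes with an alternative, 679 kept direction and side of the adjusted p threshold, 48 no longer passed it, 16 newly passed it and 9 changed sign; 8 of the 48 were of *creb3l3a*, which the TPM limit kept from a call in any case.

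Same-numbered libraries did not deviate together (correlations over genes 0.0038, -0.0103 and -0.0022, against -0.018 to 0.020 for other pairs). The labels do not say whether they came from the same batch, and they were not treated as pairs. With the replicate number as a block, 64 members were higher and 14 lower, with a median of 0.398, and the call that was lost was that of *arf2a* (adjusted p = 0.0884, edgeR). Depth did not limit the abundant members, but those near 1 TPM, such as *arf3a*, *arf3b* and *creb3l3a*, rest on few reads.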

Other observations

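A further KDEL receptor record, written KDELR3 in capitals and therefore outside the choice by symbol, averaged 35.4 ± 2.25 TPM in GFP-positive cells against 16.0 ± 1.72 TPM in GFP-negative cells (SD, n = 3 each), with a log2 fold change of 1.25 ± 0.11 (adjusted p = 2.83e-07, edgeR). It was found after the data had been seen.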
